A study of Mus musculus with 48 samples.

Results

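A list of 30 genes of cholesterol and fatty acid synthesis was followed in cultured mouse cortical neurons that had been exposed to NMDA. Before and after NMDA the neurons received compounds labelled protective, non-protective or neither, or a control treatment.
The list held 18 sterol enzymes, 8 fatty acid enzymes and 4 genes of regulation or sterol transport (Srebf1, Srebf2, Insig1 and Stard4). A gene was measured where a probe annotated with its symbol had a detection p under 0.01 on at least 6 of the 48 arrays, and the probe with the highest mean signal stood for the gene. By this rule 26 of the 30 genes were measured, against 9869 genes with such a probe in the whole series. They were 15 sterol enzymes, all 8 fatty acid enzymes and 3 of the 4 regulators or transporters, and each was detected on all 48 arrays. Probes of Fdft1 and Srebf1 were detected on 0 arrays and the probe of Idi1 on 5. Acat2 was not analysed here.

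After 7 days of culture the neurons received a compound for 1 h, then NMDA in hypotonic salt solution for 1 h, and then medium with the compound again for 16 h; total RNA was hybridised to Illumina mouse arrays. The groups were 4 compounds labelled NMDAR antagonist (ifenprodil, MK-801, riluzole and memantine, with labelled protection ratios of 1.4 to 1.87), 10 other protective compounds (1.4 to 2.76), 6 non-protective compounds (0.61 to 0.98), 16 intermediate compounds on 18 arrays that the labels leave out of both classes (1.02 to 1.38), 5 vehicle controls with DMSO and 5 mock controls with water and no compound. NMDA was given to all 48 samples, so no value compares exposed with unexposed neurons. Each compound had 1 array, with a repeat array for MitoPBN and for Z-VAD-FMK. The sources used here give no doses. The p-values measure the spread between samples of a group. In compound groups the samples carry different compounds, so that spread also holds differences between compounds. Nothing in the labels says whether control samples or repeat arrays came from separate cultures, so the spread between those may be technical.

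Cholesterol is built from acetyl-CoA through mevalonate, farnesyl diphosphate and squalene to lanosterol, which a chain of reductases, demethylases and isomerases turns into cholesterol; most brain cholesterol is made within the brain. Fatty acid synthesis starts from the same acetyl-CoA, which Acly releases from citrate and Acaca commits to the chain that Fasn builds, and elongases and desaturases then modify the product. When sterol in the endoplasmic reticulum is low, the carrier Scap takes the transcription factors SREBP1 and SREBP2 (products of Srebf1 and Srebf2) to the Golgi for cleavage, Insig1 holds them back when sterol is ample, and the cleaved factors bind sterol regulatory elements beside NF-Y, which binds CCAAT boxes. Statins such as simvastatin inhibit cholesterol synthesis early in the pathway.

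The promoters of Hmgcs1, Mvd, Lss and Cyp51 are printed because these enzymes span the pathway from HMG-CoA to the lanosterol demethylase and differ widely in their response below. Each window runs from 250 bases before to 50 bases after the gene's start (RefSeq, GRCm38.p6, 5′ to 3′ on the gene's strand). They lie at chr13:119690101-119690400 on the plus strand for Hmgcs1, chr8:122443373-122443672 on the minus strand for Mvd, chr10:76531355-76531654 on the plus strand for Lss and chr5:4104648-4104947 on the minus strand for Cyp51. Capitals mark a match to the sterol regulatory element, searched as TCACNCCAC, in Hmgcs1 and matches to CCAAT or its reverse complement ATTGG in the others.
Hmgcs1: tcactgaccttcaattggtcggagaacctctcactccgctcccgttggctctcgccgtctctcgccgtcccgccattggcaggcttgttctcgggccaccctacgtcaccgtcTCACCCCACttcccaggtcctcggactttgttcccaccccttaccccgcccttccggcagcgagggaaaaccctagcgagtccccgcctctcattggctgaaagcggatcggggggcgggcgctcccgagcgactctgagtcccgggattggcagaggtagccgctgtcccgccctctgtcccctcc
Mvd: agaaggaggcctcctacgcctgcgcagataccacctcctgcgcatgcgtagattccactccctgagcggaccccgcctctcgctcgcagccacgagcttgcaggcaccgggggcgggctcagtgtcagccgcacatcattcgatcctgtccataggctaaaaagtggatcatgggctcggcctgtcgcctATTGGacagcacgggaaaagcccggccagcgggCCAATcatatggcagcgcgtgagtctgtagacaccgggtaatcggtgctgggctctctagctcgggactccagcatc
Lss: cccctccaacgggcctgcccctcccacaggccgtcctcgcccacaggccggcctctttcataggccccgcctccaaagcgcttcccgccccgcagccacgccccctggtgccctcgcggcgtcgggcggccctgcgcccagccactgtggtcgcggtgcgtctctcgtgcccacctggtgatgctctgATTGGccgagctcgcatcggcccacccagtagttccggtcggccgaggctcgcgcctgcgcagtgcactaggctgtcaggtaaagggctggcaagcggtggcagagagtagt
Cyp51: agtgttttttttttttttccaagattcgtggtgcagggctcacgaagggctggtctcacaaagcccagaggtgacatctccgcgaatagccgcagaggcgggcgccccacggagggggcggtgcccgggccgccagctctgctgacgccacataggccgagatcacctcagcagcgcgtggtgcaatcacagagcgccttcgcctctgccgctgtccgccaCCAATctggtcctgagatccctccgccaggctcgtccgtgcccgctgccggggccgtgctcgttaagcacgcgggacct
Windows were found for 23 of the 30 genes (28 windows). Searched on both strands, TCACNCCAC was in 1 of the 28 windows, that of Hmgcs1, against 1.24% of all 32851 windows, and CCAAT was in 20 of them (71.4%), against 37.4% of all windows. The E-box CACGTG, which SREBP1 can also bind, was in 14.3% of the members' windows and in 7.15% of all. These matches describe the letters of the windows and were not set against any expression value.

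Signals are given as log2 normalised signal, and differences between groups as log2 differences, in which 1 is a doubling. Hmgcs1, which makes HMG-CoA, had one of the brightest probes of the array with a mean of 13.51, and Scd2, the main stearoyl-CoA desaturase of brain, had a mean of 13.70; the brightest probe of all averaged 13.97. At the other end Mvk had a mean of 6.96 and Mvd 7.01. Probes of different genes differ in efficiency, so these values give no order of transcript levels between genes. Over the 10 controls the SD of single members ran from 0.12 for Fads1 to 0.56 for Fasn, and over all 48 arrays from 0.14 for Scd2 to 0.63 for Fasn.

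**Figure D1:**
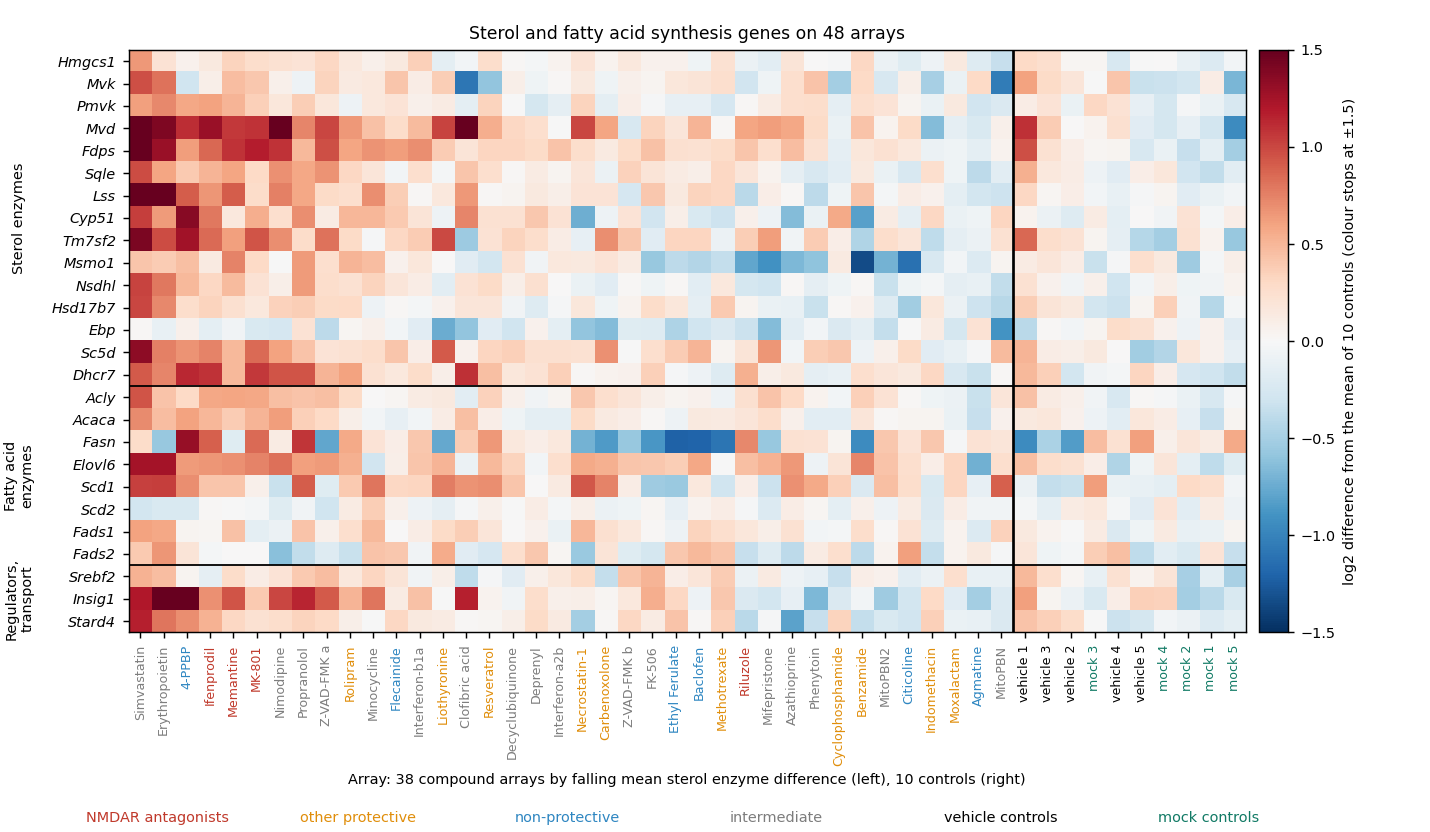
Heat map of the log2 difference of 26 genes (rows, by role) from the mean of the 10 controls on each of 48 arrays (columns). The 38 compound arrays run from the highest mean sterol enzyme difference (simvastatin, 1.06) to the lowest (MitoPBN, -0.17), and the controls stand at the right; red is higher, blue is lower, and the colour stops at 1.5 in either direction.

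In the 4 NMDAR antagonist arrays, 9 of the 26 measured genes were higher than in the 10 controls and 0 were lower (limma with Benjamini-Hochberg adjustment over 17815 probes, threshold 0.05). Of all probes tested, 10.9% were higher and 7.74% were lower in this comparison. The 9 comprised 6 of 15 sterol enzymes, 3 of 8 fatty acid enzymes and 0 of 3 regulators or transporters. The median log2 difference was 0.37 over the sterol enzymes and 0.32 over the fatty acid enzymes, against -0.05 over all probes tested.

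Mvd, which decarboxylates mevalonate diphosphate to isopentenyl diphosphate, had signals of 7.86 with ifenprodil, 7.65 with MK-801, 7.16 with riluzole and 7.63 with memantine, against 7.66, 6.57, 6.94, 6.81 and 6.39 in vehicle controls 1 to 5 and 6.29, 6.44, 6.62, 6.31 and 5.62 in mock controls 1 to 5. Ifenprodil was above every control, while vehicle control 1 lay among the antagonists. Mvd rose by 1.01 ± 0.28 (SE; adjusted p = 0.0112).

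Fdps, which makes farnesyl diphosphate, the branch point to sterols and prenylated proteins, had signals of 11.78 with ifenprodil, 12.10 with MK-801, 11.34 with riluzole and 12.01 with memantine, against 10.68 to 11.89 in the 5 vehicle controls and 10.41 to 10.95 in the 5 mock controls. Only vehicle control 1, at 11.89, reached the range of the antagonists. Its log2 difference was 0.89 ± 0.19 (SE; adjusted p = 0.00169).

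Of the later enzymes, Dhcr7, the reductase of the last step to cholesterol, was at 7.88 with ifenprodil, 7.86 with MK-801, 7.33 with riluzole and 7.28 with memantine, against 6.42 to 7.29 in the controls. The highest control, again vehicle control 1, just overlapped the lowest antagonist. Dhcr7 rose by 0.79 ± 0.20 (SE).
Tm7sf2, a sterol reductase acting after the lanosterol demethylase, averaged 8.49 ± 0.26 in antagonist arrays and 7.79 ± 0.44 in controls (SD, n = 4 and 10), a log2 difference of 0.69 (adjusted p = 0.0457 by limma). Sc5d, the sterol desaturase that acts just before Dhcr7, averaged 7.45 ± 0.29 in antagonist arrays and 6.87 ± 0.30 in controls, a log2 difference of 0.57. Sqle, the squalene epoxidase and a flux-controlling enzyme, averaged 11.34 ± 0.19 in antagonist arrays and 10.94 ± 0.27 in controls, a log2 difference of 0.40 (adjusted p = 0.0483 by limma). All 6 sterol enzymes that passed had overlapping groups. Of 22 other settings Sqle lost its call in 15, Tm7sf2 in 14, Sc5d in 5, Mvd in 3, and Fdps and Dhcr7 in 2 each.

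The sterol enzymes that did not pass had log2 differences of -0.19 (Ebp) to 0.39 (Cyp51), and 14 of the 15 sterol enzymes were above 0. Pmvk, which acts just before Mvd, missed the threshold with a log2 difference of 0.37 (adjusted p = 0.0648 by limma), and Lss, which closes squalene epoxide to lanosterol, had 0.36 (adjusted p = 0.143). Hmgcs1 differed by 0.16, with a 95% interval of -0.05 to 0.38, on a probe near the top of the signal range, where 0.123% of tested probes were brighter; whether signals are compressed there was not tested. Msmo1, which removes the methyl groups of lanosterol's ring, had the widest spread: 11.43 with memantine and 9.92 with riluzole among the antagonists, against 10.16 to 10.95 in the controls.

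Among fatty acid enzymes, Elovl6, the elongase of palmitate, had signals of 9.23 with ifenprodil, 9.31 with MK-801, 9.02 with riluzole and 9.25 with memantine, against 8.11 to 9.02 in the 10 controls. Every antagonist array was above every control, riluzole by a small margin. The share of all probes with groups apart in this way is not given here. Elovl6 rose by 0.64 ± 0.18 (SE; adjusted p = 0.0147).
Acaca, the acetyl-CoA carboxylase, had 10.26, 10.27, 9.95 and 10.15 with the 4 antagonists in the same order, against 9.42 to 9.94 in the controls. Its groups also did not overlap, again without that share for all probes, and the log2 difference was 0.39.
Acly averaged 11.29 ± 0.17 in antagonist arrays and 10.80 ± 0.20 in controls (SD, n = 4 and 10), a log2 difference of 0.50 in which vehicle control 1 overlapped riluzole. Fasn had the wider log2 difference of 0.58 but did not pass (adjusted p = 0.313 by limma), with controls from 8.92 to 10.49. Scd1, Fads1, Fads2 and Scd2 had log2 differences of 0.25, 0.13, -0.09 and -0.01, and the 95% interval for Scd2 ran from -0.20 to 0.17.

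Of the regulators, Insig1 had a log2 difference of 0.45 (adjusted p = 0.211 by limma), Stard4, a cytosolic sterol carrier, 0.16 and Srebf2 0.04, and none passed. Of all probes in this comparison, 10.9% were higher and 7.74% lower, shares to be held beside the counts that follow. Among further genes of the pathways, 0 of 4 other sterol synthesis genes passed. Of 8 genes of sterol uptake and SREBP control 1 passed, near the share of all probes: Scap fell by 0.52 (adjusted p = 0.0229 by limma). Of 6 genes of sterol export, storage and turnover, the neuronal cholesterol hydroxylase Cyp46a1 rose by 0.78 and the transporter Abcg4 rose by 0.99, while Ch25h, a cholesterol hydroxylase known from macrophages, fell by 1.41. Of 15 other fatty acid and lipid synthesis genes, Dgat2 (triglyceride synthesis) rose by 1.21, Tecr (the last step of chain elongation) by 0.65 and Elovl4 (very long chains) by 0.65, and Elovl7 fell by 0.56.

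**Figure D2:**
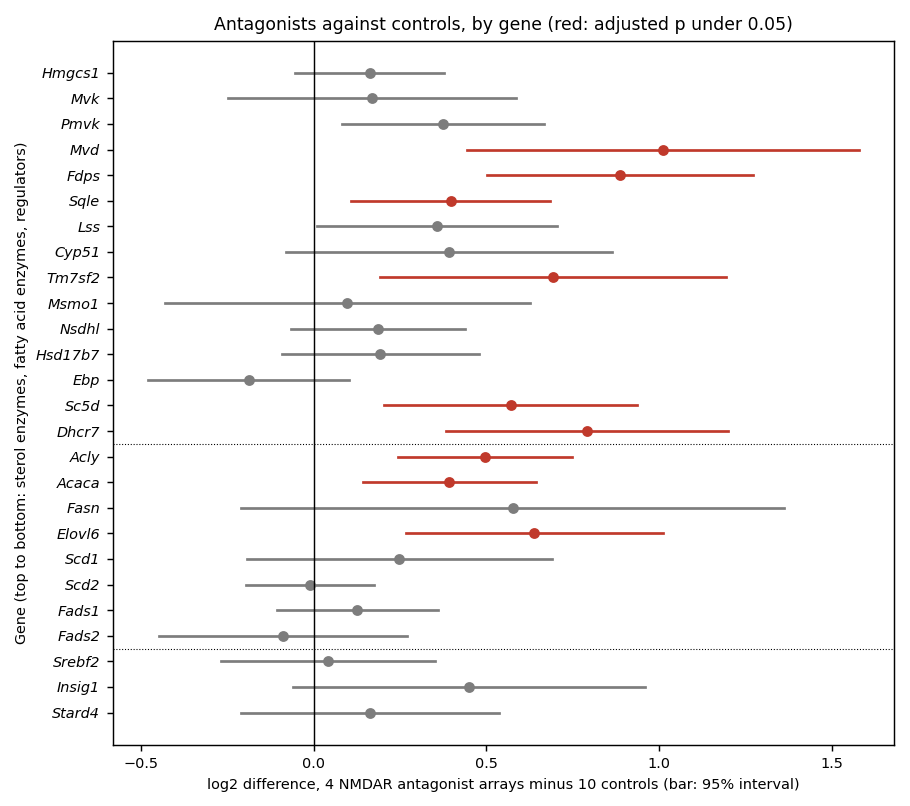
Log2 difference of each gene between 4 NMDAR antagonist arrays and 10 controls (points) with its 95% interval (bars); red marks an adjusted p under 0.05. The red genes lie between 0.39 (Acaca) and 1.01 (Mvd), and Ebp, Fads2 and Scd2 are the genes below 0.

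Riluzole, with 1 array, was lower than the other antagonists in the mean of the sterol enzymes. The mean log2 difference of the 15 enzymes from the control mean was 0.02 with riluzole, against 0.55 with ifenprodil, 0.54 with memantine and 0.51 with MK-801. For the 8 fatty acid enzymes the means were 0.19 with riluzole, 0.38 with ifenprodil, 0.29 with memantine and 0.32 with MK-801. Without riluzole 11 genes passed, without memantine 7, without MK-801 4 and without ifenprodil 3 (Fdps, Dhcr7 and Acly). Leaving out any 1 of the 10 controls gave 7 to 9 genes.

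All 15 measured neuron markers were also higher in antagonist arrays, with a median log2 difference of 1.54. Their mean difference on single arrays ran from 1.17 to 1.78 with antagonists and from -0.40 to 1.10 in controls, where vehicle control 1 was the highest, and their summed linear signal from 21727 to 33247 with antagonists and from 6716 to 21344 in controls. The markers' part in the sterol and fatty acid results was not tested, and in these cultures more surviving neurons and more RNA per neuron cannot be told apart. High neuron scores stood beside high sterol means with MK-801 (1.78 and 0.51), nimodipine (1.72 and 0.48), ifenprodil (1.63 and 0.55), 4-PPBP (1.36 and 0.61), memantine (1.17 and 0.54), simvastatin (0.97 and 1.06), the first Z-VAD-FMK array (1.18 and 0.39) and vehicle control 1 (1.10 and 0.41). They stood beside low sterol means with riluzole (1.28 and 0.02), mifepristone (1.17 and 0.02) and clofibric acid (0.99 and 0.18). Just below simvastatin's neuron score, sterol means were also low with the first MitoPBN array (0.92 and -0.17), carbenoxolone (0.91 and 0.09) and azathioprine (0.91 and 0.0047). The same held for the second MitoPBN array (0.88 and -0.06) and resveratrol (0.88 and 0.16). High sterol means came with lower neuron scores with erythropoietin (0.33 and 0.76) and propranolol (0.12 and 0.47). In antagonist arrays 10.9% of all probes were higher and 7.74% lower than in controls. Of the other cell types, 2 of 10 astrocyte markers were lower and 0 higher, and 0 of 9 oligodendrocyte lineage, 0 of 6 microglia and 0 of 5 fibroblast or vascular markers passed in either direction. The cultures thus held signal of neuron and glial markers alike. Markers below detection included Nefl (neuron), Aldh1l1 and Gjb6 (astrocyte), Mog (oligodendrocyte), Csf1r, P2ry12 and Fcer1g (microglia), and Col1a2, Col3a1, Lum, Pecam1 and Cldn5 (fibroblast or vascular).

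Chip and position on the chip were also fitted. With the 8 chips as a block, 10 members passed, the 9 above and Lss with a log2 difference of 0.50. Of the 10 controls 8 sat at position A, which held no compound, and 2 at position B. With position as a covariate 0 members passed, while 5.94% of all probes were higher in antagonist arrays. Under that fit the log2 differences of the 9 genes ran from 0.33 (Sqle) to 1.10 (Mvd), with adjusted p of 0.0646 to 0.44; position and control status can hardly be told apart here.

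**Figure D3:**
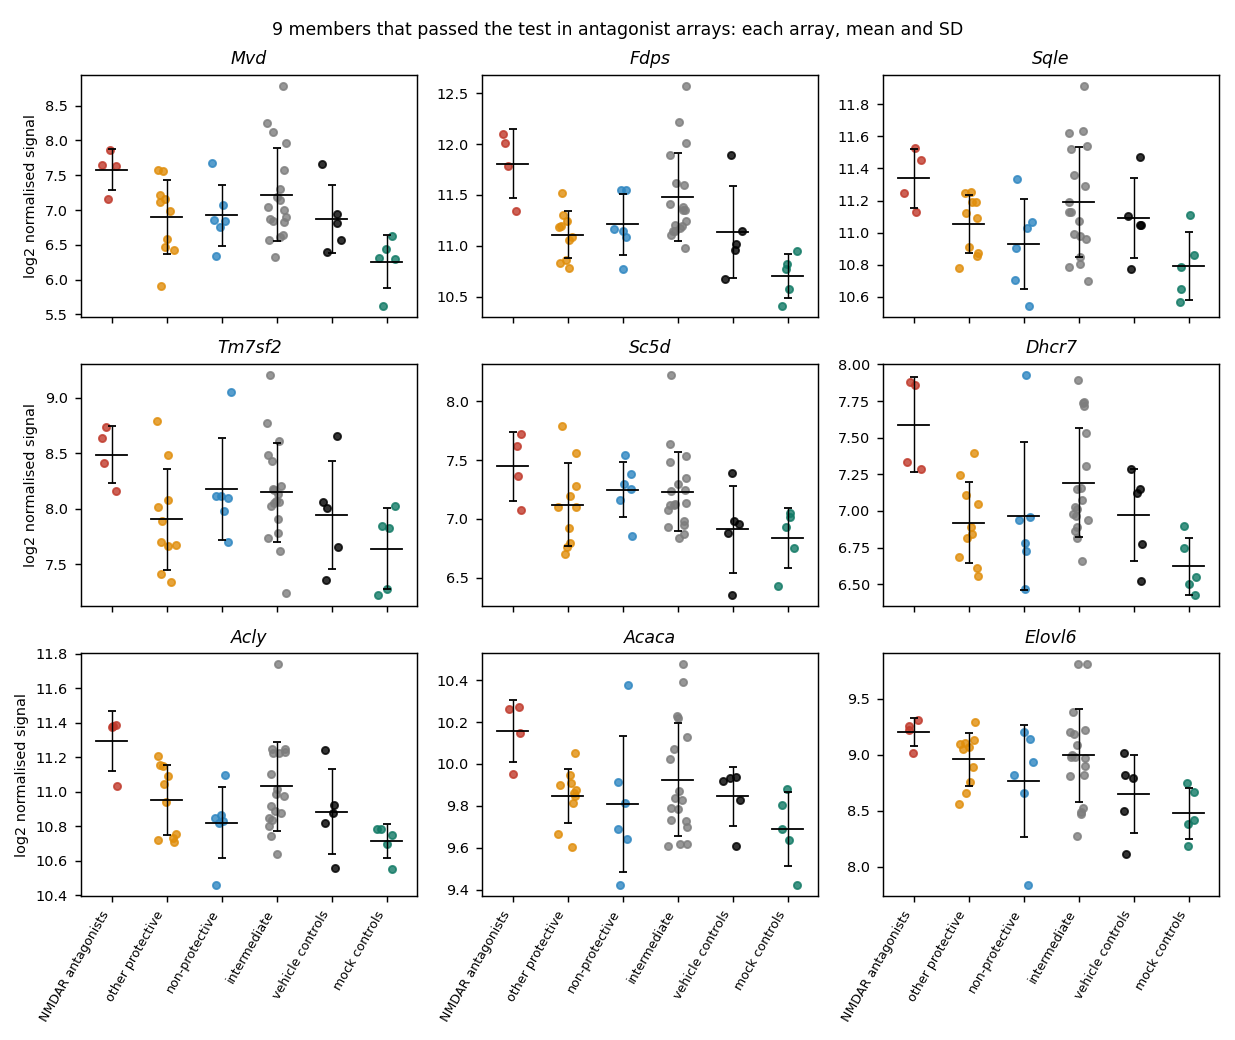
Log2 normalised signal of the 9 genes that passed in antagonist arrays, on every array (points) of 6 groups, with the mean (line) and SD (bar) over arrays; repeat arrays are shown singly. The vehicle control near the antagonists in Mvd (7.66) and Fdps (11.89) is vehicle control 1, and the highest intermediate point is simvastatin in each panel but that of Dhcr7, where clofibric acid is higher.

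In the 10 other protective compounds 0 of 26 members passed against controls (limma), with 4 at an unadjusted p under 0.05; of all probes 0.174% passed in either direction and 17.2% had such a p. The smallest p was that of Elovl6, at 8.96 ± 0.23 in the protective arrays and 8.56 ± 0.29 in controls (SD, n = 10 each; log2 difference 0.40, adjusted p = 0.171). Next came Ebp at -0.29, Scd1 at 0.35, Fads1 at 0.18 and Sc5d at 0.24. Median differences were 0.11 for the sterol enzymes and 0.12 for the fatty acid enzymes, against 0.00085 over all probes.

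The antagonists were set directly against these other protective compounds. Fdps, at 11.34 to 12.10 in antagonist arrays and 10.79 to 11.52 with the other protective compounds, rose by 0.70 (adjusted p = 0.0302 by limma). Dhcr7, at 7.28 to 7.88 in antagonist arrays and 6.55 to 7.40 with the other protective compounds, rose by 0.67 (adjusted p = 0.0498 by limma). Of all probes 3.45% were higher and 0.921% lower. Acly, Acaca and Mvd followed with log2 differences of 0.34, 0.31 and 0.68 and did not pass. With chips as a block 5 members passed (Fdps, Sqle, Dhcr7, Acly and Acaca), without ifenprodil or without MK-801 none did, and without riluzole (Fdps) or without memantine (Dhcr7) 1 did. The median sterol enzyme difference was 0.29 and that of the fatty acid enzymes 0.12. In the same comparison 8 of 15 neuron markers were higher, with a median log2 difference of 1.14, and their part in these values was not tested.

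Across the labelled classes, 1 member passed among 26, while 4.24% of all probes were higher and 3.41% lower in the protective class. Elovl6 averaged 9.03 ± 0.23 in the 14 protective arrays and 8.64 ± 0.38 in the 16 non-protective and control arrays (SD), a log2 difference of 0.39 (adjusted p = 0.0385 by limma); with the antagonists left out, or with chips as a block, no member passed. Of 15 neuron markers 7 were higher in the same comparison, with a median log2 difference of 0.70, and their part in it was not tested. Acly (0.24), Ebp (-0.23), Sqle (0.20) and Hmgcs1 (0.14) came next and did not pass.
Over the 36 compounds no member had a slope on the log2 protection ratio that passed (limma; 2 at an unadjusted p under 0.05, against 0% of all probes that passed and 5.33% at such a p). The smallest p were those of Fads2 (-0.33 per doubling of the ratio), Elovl6 (0.34), Hsd17b7 (0.23), Acly (0.20) and Hmgcs1 (0.13), each with an adjusted p of 0.848.

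The 6 non-protective compounds gave 0 members against controls (limma; 2 at an unadjusted p under 0.05), with 0.0168% of all probes passed and 6.72% at such a p. Fads2, the desaturase that opens the polyunsaturated fatty acid route, averaged 10.28 ± 0.17 in these arrays and 9.90 ± 0.29 in controls (SD, n = 6 and 10; log2 difference 0.38, adjusted p = 0.65). Sc5d (0.37), Lss (0.27), Tm7sf2 (0.38) and Fdps (0.29) followed.

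In the 16 intermediate compounds Fdps rose by 0.58 ± 0.16 (SE; adjusted p = 0.0301 by limma), with values of 11.06 to 12.58 over the compounds, against 10.41 to 11.89 in controls, and was the only member to pass. Of all probes 3.32% were higher and 3.53% lower. Mvd (0.71, adjusted p = 0.0579 by limma), Dhcr7 (0.42), Sc5d (0.38) and Elovl6 (0.43) did not pass. The median difference was 0.26 over sterol enzymes and 0.18 over fatty acid enzymes, against -0.01 over all probes. Without vehicle control 1 the count was 5, with chips as a block it was 6 (Mvd, Fdps, Tm7sf2, Sc5d, Elovl6 and Scd1), and without mock control 1, 4 or 5 or vehicle control 4 or 5 it was 0. Of the 15 measured neuron markers 6 also passed in this comparison, all higher, and their part in it was not tested.

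Vehicle and mock controls, which received DMSO and water, gave 0 members past the threshold (limma; 6 at an unadjusted p under 0.05, against 0% of all probes passed and 20% at such a p). The smallest p were those of Srebf2 (0.42 higher in vehicle), Scd1 (-0.39), Mvd (0.62), Mvk (0.47) and Insig1 (0.41). Mvd ran from 6.39 to 7.66 in vehicle controls and from 5.62 to 6.62 in mock controls, which overlap. With chip as a random block 2 members passed. Vehicle controls 1 to 3 were on chips 6 to 8 and mock controls 2 to 4 on chips 3 to 5. Only chips 1 and 2 held both kinds, so solvent and chip can hardly be told apart here.

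**Figure D4:**
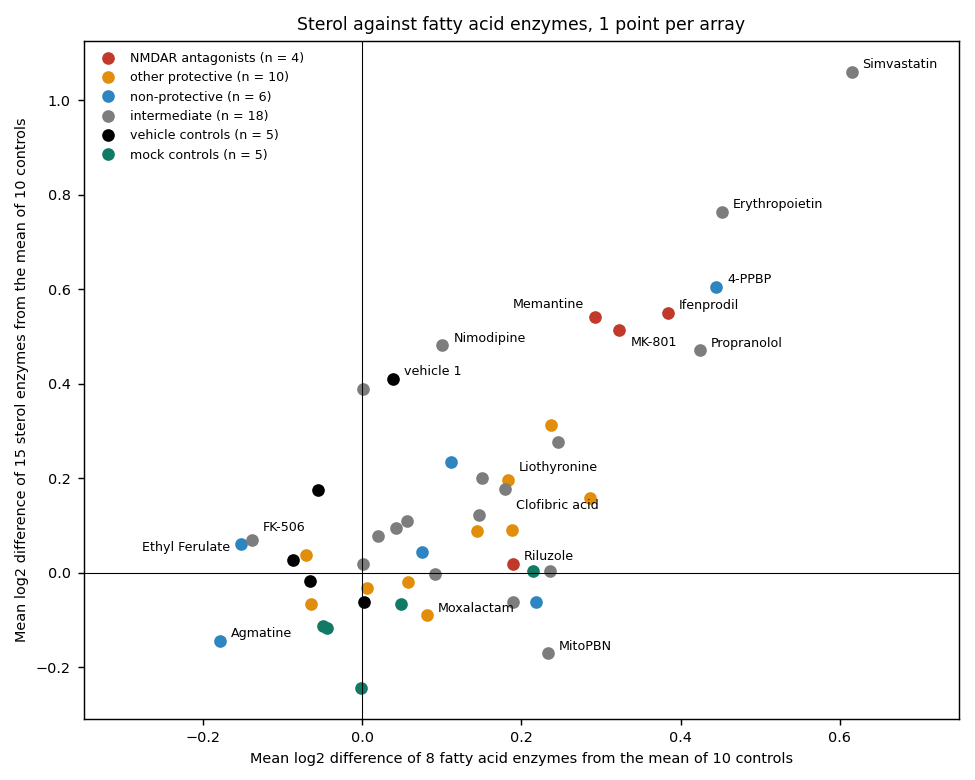
Each point is 1 array: the mean log2 difference of 15 sterol enzymes (vertical) against that of 8 fatty acid enzymes (horizontal), both from the mean of the 10 controls. Simvastatin lies farthest out at 1.06 and 0.61, and the 10 controls span -0.24 to 0.41 for sterol enzymes and -0.09 to 0.21 for fatty acid enzymes.

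Single compounds, with 1 array each, have no test; a gene is counted as higher where it lay outside the range of the 10 controls and at least 1.5-fold above their mean. Of the 36 compounds 8 had a mean sterol enzyme difference above every control, 12 had a mean fatty acid enzyme difference above every control, and 7 had both. The 8 were simvastatin, erythropoietin, 4-PPBP, ifenprodil, memantine, MK-801, nimodipine and propranolol; the last pair lies outside the rule for named compounds and was chosen after its values were seen. At 23 of 38 compound arrays no sterol enzyme was higher.

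Simvastatin had the highest sterol mean of the series, 1.06, with 13 of 15 sterol enzymes higher, and the highest fatty acid mean, 0.61, with 5 of 8 higher, against 7.15% of all probes higher by the same count. The largest differences from the control mean were Mvd at 2.22, Lss at 1.68, Fdps at 1.65, Tm7sf2 at 1.41 and Sc5d at 1.35. Simvastatin ranked highest of the 38 compound arrays for 10 of the sterol enzymes, among them Hmgcs1 at 0.65. The sterol enzymes that were not higher were Msmo1 at 0.41 and Ebp, the sterol isomerase, at 0.02. Insig1 was at 1.20, Stard4 at 1.16 and Srebf2 at 0.52. Of the fatty acid genes, Elovl6 stood at 1.24, Scd1 at 1.03, Acly at 0.94 and Fasn at 0.28, while Scd2 was at -0.28. Acss2, which makes acetyl-CoA from acetate and is outside the member list, was at 1.36. Outside that list, 2 of 15 other fatty acid and lipid synthesis genes and 1 of 6 genes of sterol export, storage and turnover were higher. Of 4 other sterol synthesis genes and 8 genes of sterol uptake and SREBP control, 0 were higher. Of the uptake and control genes 1 was lower, and of the export, storage and turnover genes 1 was lower. By the same count 8.01% of all probes were lower with simvastatin.

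Vehicle control 1 sat on the same chip as simvastatin and had the highest sterol mean of the controls, 0.41. Against that control alone simvastatin's sterol mean was 0.65, with Lss at 1.36, Mvd at 1.13, Cyp51 at 0.98 and Fdps at 0.69. Simvastatin was dissolved in ethanol, and no control received ethanol. Sterol means of the other ethanol arrays were 0.61 (4-PPBP), 0.48 (nimodipine), 0.18 (clofibric acid), 0.09 (necrostatin-1), 0.06 (ethyl ferulate), 0.02 (mifepristone), -0.0018 (phenytoin) and -0.07 (indomethacin). The part of the solvent was not tested, and it cannot be told apart from these compounds for want of an ethanol control. The neuron score with simvastatin was 0.97 and the fibroblast or vascular score -1.44, and their part in these values was not tested.

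Erythropoietin, a hormone with an intermediate label, came second with a sterol mean of 0.76 and 12 of 15 sterol enzymes higher, a fatty acid mean of 0.45 and 3 of 8 higher, against 4.35% of all probes. Insig1 had its highest value of the series there, 1.72, followed by Lss at 1.53, Mvd at 1.40 and Fdps at 1.30, and Acss2 was at 1.49. Of 15 other fatty acid and lipid synthesis genes 1 was higher. The further sterol lists had 0 of 4 (synthesis), 0 of 8 (uptake and SREBP control) and 0 of 6 (export, storage and turnover) higher. Erythropoietin shared the chip of vehicle control 1, against which its sterol mean was 0.35; Lss stayed at 1.21 and Insig1 at 1.10, whereas Mvd was at 0.31 and Fdps at 0.33.

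4-PPBP, labelled a receptor agonist and non-protective with a ratio of 0.89, had a sterol mean of 0.61 and 7 of 15 sterol enzymes higher, and a fatty acid mean of 0.44 and 4 of 8 higher, against 10.2% of all probes. Its leading genes were Insig1 at 1.53, Cyp51 at 1.37, Fasn at 1.31, Tm7sf2 at 1.26 and Dhcr7 at 1.13, and Thrsp, a lipogenic regulator outside the list, was at 1.53. Of 15 other fatty acid and lipid synthesis genes 4 were higher. The further sterol lists had 0 of 4 (synthesis), 1 of 8 (uptake and SREBP control) and 0 of 6 (export, storage and turnover) higher. Cyp51, Fasn and Dhcr7 had their highest values of the series with 4-PPBP. Against the mock control on its chip the sterol mean was 0.72. Median scaling over all probes put its sterol mean at 0.084 and turned its fatty acid mean to -0.091, and ifenprodil's to 0.075 and -0.087. The 4-PPBP array had a neuron score of 1.36, within the range of the antagonists, and a microglia score of -1.06, whose part in these values was not tested.
Ifenprodil, on the same chip and like 4-PPBP a phenylalkyl piperidine, had 6 of 15 sterol and 2 of 8 fatty acid enzymes higher, also against 10.2% of all probes; Dhcr7 was at 1.08 with ifenprodil and 1.13 with 4-PPBP, Cyp51 at 0.79 and 1.37, and Insig1 at 0.68 and 1.53 in the same order.

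**Figure D5:**
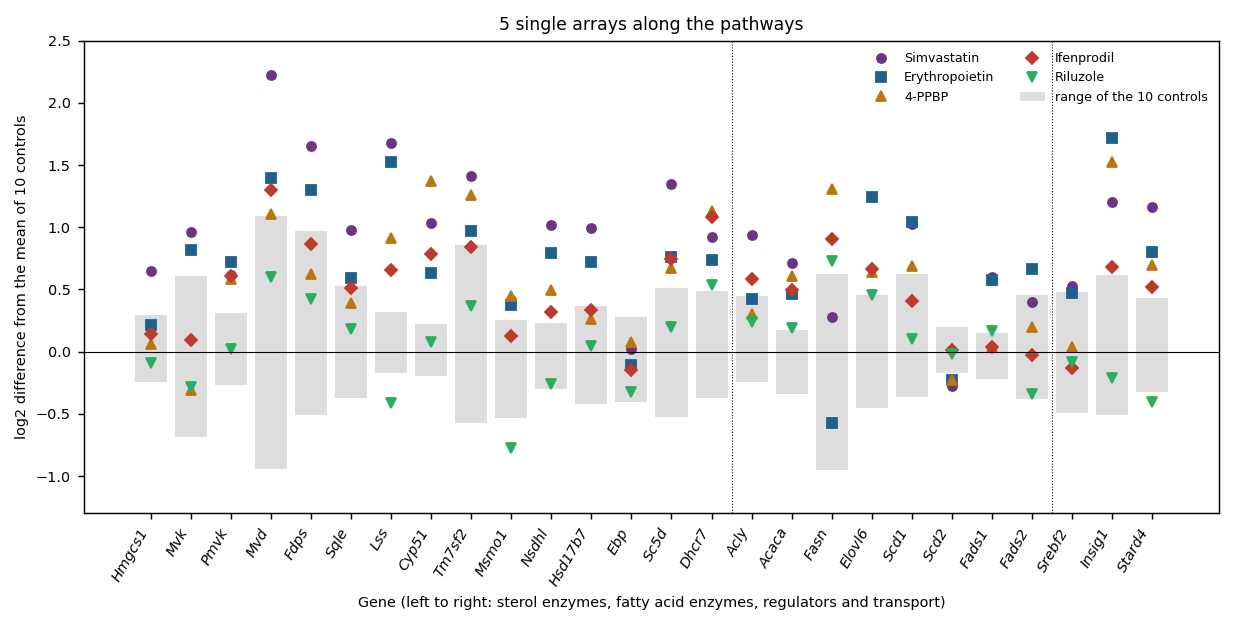
Log2 difference from the mean of the 10 controls along the pathways for simvastatin, erythropoietin, 4-PPBP, ifenprodil and riluzole, 1 array each (symbols); grey bars give the range of the 10 controls. Simvastatin reaches 2.22 for Mvd, erythropoietin 1.72 for Insig1, 4-PPBP 1.37 for Cyp51, and riluzole lies below the controls for Msmo1 at -0.78.

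The remaining antagonists had fewer genes outside the controls. Memantine had 4 of 15 sterol and 2 of 8 fatty acid enzymes higher, against 5.78% of all probes, led by Mvd and Fdps at 1.07 and 1.09. MK-801 also had 4 and 2, against 11.2%, led by Fdps at 1.18 and Mvd at 1.09. Riluzole had 0 sterol enzymes and 1 fatty acid enzyme higher, against 5.59%, and Msmo1 lower at -0.78, against 7.13% of all probes lower. Against controls on the same chip the sterol means were 0.66 with ifenprodil, 0.51 with memantine, 0.51 with MK-801 and 0.02 with riluzole, so the order of the sterol means was kept. The fatty acid means on the same chip were 0.43 with ifenprodil, 0.38 with memantine, 0.11 with MK-801 and -0.03 with riluzole. There MK-801 fell below memantine, and riluzole turned its sign.

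Nimodipine, a calcium channel blocker, had a sterol mean of 0.48 with 6 of 15 enzymes higher but a fatty acid mean of 0.10 with 2 of 8 higher, against 14.7% of all probes; Mvd was at 1.55 and Fads2 at -0.63. Propranolol, a beta-adrenergic receptor blocker that the labels list as a receptor agonist, had a sterol mean of 0.47 with 4 higher and a fatty acid mean of 0.42 with 3 of 8 higher, against 3.05%, with Insig1 at 1.14, Fasn at 1.07 and Dhcr7 at 0.94. On their own chips the sterol means were 0.31 with nimodipine and 0.62 with propranolol.

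Liothyronine, the thyroid hormone T3, which induces lipogenic genes in liver, had a sterol mean of 0.20 and a fatty acid mean of 0.18; Mvd (1.01), Tm7sf2 (0.99), Sc5d (0.91) and Scd1 (0.77) were high, Fasn was at -0.76 and Ebp at -0.75. Against vehicle control 1 on its chip, the sterol mean was -0.21 and Fasn was at 0.18. Against that control Mvd was at -0.08, Tm7sf2 at 0.14, Sc5d at 0.40, Scd1 at 0.85 and Ebp at -0.35. By the count against all controls, liothyronine had 2 sterol enzymes and 1 fatty acid enzyme higher, against 8.21% of all probes. With clofibric acid, a fibrate that activates PPAR alpha, sterol enzymes lay on both sides of the control mean. Mvd was at 1.68, Dhcr7 at 1.10, Cyp51 at 0.73 and Insig1 at 1.17, but Mvk was at -1.08 and Ebp at -0.60. Against the controls of the same chip, Mvk was at -0.57, Ebp at -0.63 and Mvd at 2.24. Clofibric acid had 4 sterol enzymes and 1 fatty acid enzyme higher, against 14.8% of all probes, on an array whose oligodendrocyte and microglia scores were -2.54 and -2.87.

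At the low end, agmatine had a sterol mean of -0.14 and the lowest fatty acid mean of the series, -0.18, with Elovl6 at -0.73. The mean of both MitoPBN arrays was -0.12 for sterol enzymes, where Mvk was at -1.05 on one array and -0.24 on the other, and moxalactam stood at -0.09. Against the controls of the same chip, Mvk on these MitoPBN arrays was at -0.54 and 0.03 in the same order. Ethyl ferulate and FK-506 had fatty acid means of -0.15 and -0.14, with Fasn at -1.21 and -0.87. All of these sterol means lay within the controls' range, whereas the fatty acid means of agmatine, ethyl ferulate and FK-506 lay below the lowest control. For ethyl ferulate and FK-506, on chips with low Fasn throughout, the fatty acid means against the control of the same chip were -0.065 and -0.082.

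The genes differed in how often they moved among the 38 compound arrays. Lower is counted by the same rule in the other direction. On single compound arrays 0.965% (agmatine) to 14.8% (clofibric acid) of all probes were higher. From 0.387% (interferon-a2b) to 19.1% (clofibric acid) of all probes were lower. Scd1 was higher on 12, Elovl6 on 11, Insig1 on 10, Sc5d and Dhcr7 on 9 and Lss on 8, whereas Srebf2 and Scd2 were higher or lower on 0. Msmo1 was lower on 7 arrays and higher on 2, with its lowest value at -1.34 in the benzamide array, where Cyp51 also was at -0.81. Ebp was lower on 6 arrays and higher on 0. Lss and Cyp51 were the enzymes with quiet controls (SD 0.14 and 0.13) and a wide range over compounds.

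Fasn followed the chips. It lay at 8.66 to 10.15 (median 9.10) on the 18 arrays of chips 6 to 8 and at 9.85 to 11.18 (median 10.10) on the 30 arrays of chips 1 to 5, a split seen after the values were known, and only 2 of the 18 reached the range of the 30, simvastatin at 10.15 and nimodipine at 9.99. Vehicle controls 1 to 3 were the only controls on chips 6 to 8. Against the controls of the same chip, Fasn was at 1.23 with simvastatin, 1.13 with 4-PPBP and 0.38 with erythropoietin, where the comparison with all controls had given 0.28, 1.31 and -0.57. The medians of chips spanned 1.38 for Fasn, 1.32 for Tm7sf2, 1.10 for Mvd and 1.08 for Mvk, and 0.21 for Msmo1.

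Second probes existed for several members. With simvastatin they stood near the main probe for Insig1 (1.32), Cyp51 (1.34), Sqle (1.20), Stard4 (1.15), Fdps (2.01) and Tm7sf2 (1.13), for Nsdhl (1.09 and 0.89) and for Fads1 (0.61) and Fads2 (0.38), and lower for Mvk (0.45). In antagonist arrays the second probe of Tm7sf2 rose by 0.71 (adjusted p = 0.0167 by limma), while those of the other genes that had passed did not pass: Fdps had 0.51 (adjusted p = 0.0633), Sqle 0.33 (0.182), Acaca 0.0085 (0.977) and Elovl6 -0.0043 (0.993). Second probes of Lss (-0.08), Acaca (-0.08) and Elovl6 (-0.21) and both further probes of Srebf2 (0.03 and -0.08) did not follow the main probe with simvastatin. The second probes of Lss, Acaca and Elovl6 were dim, with means of 5.46, 5.92 and 5.06, and so were those of Fdps and Fads1, with 5.59 and 5.54.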

How the data were processed

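Total RNA of 48 samples was measured on 8 Illumina chips. The signals are linear average bead intensity values without scaling between arrays, which the authors exported with BeadStudio per the submitters' processing notes (version not given in the sources used here). Per the file headers each is followed by its detection p-value. The deposited series matrix holds the intensity less 1 constant per array (32.3 to 111) and served as an alternative. Median signals ran from 36.1 to 124, and 26.3% to 39.0% of the 46632 probes were detected per array; the precision is limited by the number of arrays.

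Signals were corrected with normexp from detection p-values (nec, offset 16), quantile normalised and put on the log2 scale. The 17815 probes with a detection p under 0.01 on at least 6 arrays were fitted with limma 3.58.1 in R 4.3.3 (lmFit and eBayes, two-sided; tables read with data.table, version 1.17.8), adjusted by Benjamini-Hochberg at 0.05. The labelled-class groups and the 10 controls shared 1 fit; intermediate compounds, the classes, the controls and the slope had their own, with repeat arrays averaged. Fits were checked on simulated data. Markers were neuron, astrocyte, oligodendrocyte lineage, microglia and fibroblast or vascular lists; a score is the mean log2 difference from the control mean. Promoters were read with Python 3.11.15 and pandas 2.3.3, and figures drawn with matplotlib 3.10.9. Symbols come from an old platform annotation.

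Members that passed are named; where fewer than 5 passed, so are the 5 with the smallest p. Single compounds named are those with known targets in the pathway, the antagonists, 4-PPBP, and the 3 highest and 3 lowest means. The members, lists and alternatives were chosen with earlier results of these data known. Alternatives changed the normalisation, background, filter, chip, position, solvent and arrays used.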

Additional observations from a re-analysis of the deposited data

Results flagged for a closer look

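Of 140 series of 4 to 10 array values examined, 7 held an array far from the others. This is no more than the share of about 1 in 20 that chance sets apart. Riluzole was the lowest of the 4 antagonists for the mean sterol enzyme difference (0.0194, nearest 0.514), for Acly (11.03, nearest 11.37) and for Fads2 (9.56, nearest 9.87). Memantine was the lowest for Fasn (9.69, nearest 10.59), and was the only antagonist on chips 6 to 8. The Fasn median was 9.10 on those chips and 10.10 on chips 1 to 5. Against the controls of the same chip, Fasn was at 0.66 with memantine, 0.73 with ifenprodil, 0.39 with MK-801 and 0.26 with riluzole. 4-PPBP was the highest of the 6 non-protective arrays for Tm7sf2 (9.05, nearest 8.12) and Dhcr7 (7.93, nearest 6.96). Benzamide was the lowest of the 10 other protective arrays for Msmo1 (9.35, nearest 10.33). Antagonists and the other protective compounds differed in 2 members: Fdps was higher by 0.70 and Dhcr7 by 0.67 in antagonist arrays (limma, tested directly). Of 12 other settings Fdps lost its call in 7 and Dhcr7 in 8. Of 15 neuron markers 8 were higher in the same comparison (median log2 difference 1.14), and their part in it was not tested.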

How the results depend on the processing

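Counts of members that passed depended on the processing in every comparison with a call. For antagonists against controls the 9 became 0 under median scaling over all probes and 0 with position as a covariate, and 3 to 11 with 1 antagonist or control left out. For intermediate compounds the 1 became 0 under median scaling over all or over tested probes, without the detection filter and with position or solvent as a covariate, 6 with chip as a block and 0 to 5 with 1 control left out. For antagonists against other protective compounds the 2 became 0 under both median scalings, without the filter and with position, 1 with series matrix values, 5 with chip as a block and 0 to 1 with 1 antagonist left out. For the classes the 1 became 0 under median scaling over all probes, without the filter, with chip, with position and without the antagonists. For vehicle against mock controls chip as a random block gave 2, and leaving out 1 array gave 0 to 0. Median scaling over all probes moved the median of all tested probes from -0.05 to -0.27 in antagonists and to -0.22 in the class comparison, where 0.78% of calls were higher, against 55.4% otherwise; for intermediate compounds 2.44% were, against 48.5%. Relative to the median of all probes the sterol enzymes of antagonists stood at 0.36 under it and 0.42 otherwise. Among single compounds, median scaling over all probes gave sterol means of 1.11 (erythropoietin), 0.084 (4-PPBP) and 0.075 (ifenprodil) and fatty acid means of 0.84 (simvastatin), 0.83 (erythropoietin), -0.091 (4-PPBP) and -0.087 (ifenprodil), the last pair with the sign turned; scaling over tested probes gave fatty acid means of 0.80 (simvastatin) and 0.56 (erythropoietin). Against the control on the same chip, sterol means were 0.65 (simvastatin) and 0.35 (erythropoietin). The cause of these shifts was not tested. Leaving out arrays leaves fewer samples. The replicate block for vehicle against mock controls gave 0; equal numbers do not pair the samples (correlations of -0.142 to 0.148, 1 of 5 over 0.1, 1 of 5 best with its own number). No member that passed a group comparison changed its direction there under these settings. Against the same-chip control Fasn turned its sign with erythropoietin (0.38) and liothyronine (0.18). Scaling over tested probes, same-chip values and single controls left out were chosen after seeing the data.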
